A study of Mus musculus with 17 samples.

Results

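The mitochondrial ribosomal proteins are the nuclear-encoded proteins of the ribosome inside mitochondria. Their genes were taken as every row of the expression table whose symbol begins with Mrpl or Mrps and a number. The rule gave 78 of the 21683 listed rows, 49 Mrpl genes named for the large subunit and 29 Mrps genes named for the small subunit. All 78 are protein-coding in the GENCODE M21 annotation of GRCm38, and they lie on 17 chromosomes. Peritoneal macrophages (PMs) elicited with thioglycollate were profiled by RNA-Seq in 17 libraries of 3 groups. IKKβF/F PMs were given PBS (F/F PBS, n = 6 libraries) or 100 nM of the HIV-1 protein Tat (F/F Tat, n = 6), and IKKβΔMye PMs were given 100 nM Tat (ΔMye Tat, n = 5), each for 12 h after 4 h of attachment. The mice were 8-week-old C57BL/6 males injected with 1 mL of 3% thioglycollate. Every group, the controls included, carried loxP-flanked Ikbkb alleles, the gene of IKKβ, a kinase that activates NF-κB. The ΔMye mice also carried 1 LysM-Cre knock-in allele, which is active in myeloid cells and disrupts that copy of the lysozyme gene. A ΔMye group without Tat was not analysed here, so any effect of the genotype that preceded Tat is part of what the ΔMye Tat group shows.

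Mitochondria keep a small genome that encodes core subunits of the respiratory chain and of ATP synthase, and a dedicated ribosome makes these proteins in the matrix. Its RNAs come from the mitochondrial genome, and all of its proteins are made in the cytosol and imported. Many of the proteins have a counterpart in the bacterial ribosome, and others are found in mitochondria and have none. The symbols are historical. Mrps18a and Mrps30 encode proteins that are now placed in the large subunit, and the product of Mrps36 is now known as a subunit of the oxoglutarate dehydrogenase complex of the citric acid cycle. By these assignments the 78 genes comprised 46 with a bacterial counterpart (30 large, 16 small), 31 that are specific to mitochondria (21 large, 10 small) and Mrps36. Expression of nuclear genes for mitochondria is known to depend on factors such as NRF1, the GABP complex of the ETS family, and YY1.

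Promoters of 69 of the 78 genes were present in the RefSeq table of GRCm38.p6, from 250 bases before to 50 bases after the start of the gene. Shown are 4, those of the 2 genes with the lowest log2 difference with Tat among those that fell (Mrpl42 and Mrpl34) and of 2 of the genes that rose (Mrpl27 and Mrpl30). They were shown so that the sequence elements of genes with opposite responses can be compared. The capitals mark a match to the ETS/GABP core CCGGAAG, the NRF1 core GCATGCGC or the YY1 motif AAGATGGCG on either strand. The windows are chr10:95501900-95502199 on the minus strand (Mrpl42), chr8:71464676-71464975 on the plus strand (Mrpl34), chr11:94653541-94653840 on the plus strand (Mrpl27) and chr1:37890227-37890526 on the plus strand (Mrpl30).
Mrpl42: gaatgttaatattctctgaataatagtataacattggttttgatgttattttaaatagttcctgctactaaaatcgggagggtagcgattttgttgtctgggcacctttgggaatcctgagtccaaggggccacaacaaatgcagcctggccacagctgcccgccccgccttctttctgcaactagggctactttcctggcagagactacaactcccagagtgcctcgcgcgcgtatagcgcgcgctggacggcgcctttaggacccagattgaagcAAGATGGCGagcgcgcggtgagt
Mrpl34: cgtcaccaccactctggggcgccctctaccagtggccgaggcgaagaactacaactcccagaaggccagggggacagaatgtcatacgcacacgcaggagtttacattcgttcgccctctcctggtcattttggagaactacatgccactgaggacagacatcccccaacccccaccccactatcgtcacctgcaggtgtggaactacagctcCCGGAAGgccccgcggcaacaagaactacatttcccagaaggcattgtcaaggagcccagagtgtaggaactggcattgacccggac
Mrpl27: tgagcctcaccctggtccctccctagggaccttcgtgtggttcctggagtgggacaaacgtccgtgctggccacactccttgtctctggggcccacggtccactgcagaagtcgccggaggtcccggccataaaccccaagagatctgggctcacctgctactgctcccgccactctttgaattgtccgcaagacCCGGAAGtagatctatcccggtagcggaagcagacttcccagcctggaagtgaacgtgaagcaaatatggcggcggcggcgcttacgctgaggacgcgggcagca
Mrpl30: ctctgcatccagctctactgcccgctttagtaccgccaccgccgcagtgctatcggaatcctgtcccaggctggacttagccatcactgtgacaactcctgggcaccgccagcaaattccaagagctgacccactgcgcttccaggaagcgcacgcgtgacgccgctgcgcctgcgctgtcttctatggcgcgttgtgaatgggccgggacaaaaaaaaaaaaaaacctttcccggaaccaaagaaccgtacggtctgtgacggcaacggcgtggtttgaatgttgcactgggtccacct
The Mrpl42 window holds 1 YY1 match, the Mrpl34 and Mrpl27 windows hold 1 ETS/GABP match each, and the Mrpl30 window holds none of the 3 motifs. Thus an ETS/GABP core was present both in a gene that fell and in a gene that rose.

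Over the 69 promoters, the ETS/GABP core was found in 25 (36.2%), against 20.4% of the 8413 promoters of tested genes and 8.86% of all 32851 promoters in the table. The NRF1 core was found in 8 (11.6%), against 5.97% of promoters of tested genes, and the YY1 motif in 8 (11.6%), against 3.64%. The general elements showed another pattern. CCAAT was found in 27 member promoters (39.1%, against 38.8% of tested genes), the SP1 core GGGCGG in 34 (49.3%, against 65.3%) and TATAAA in 4 (5.8%, against 6.85%). The E-box CACGTG, which MYC and MAX bind, was found in 5 (7.25%, against 10.8% of tested genes). For κB, only 1 strict form of the site was searched, with 1 base left free. It was in 0 of the 69 windows, against 0.416% of the promoters of tested genes. With so rare a sequence, 0 matches in 69 windows cannot show whether these promoters lack κB sites, and other forms were not searched. The motifs were searched on both strands, and a match is a description of the letters, not a bound site. Of the members that fell with Tat on both scales used below, 11 of the 32 with a promoter held the ETS/GABP core, as did 13 of the 35 that neither rose nor fell. In the same order, the SP1 core was in 20 and 14, CCAAT in 15 and 12, the NRF1 core in 2 and 6 and the YY1 motif in 4 and 4. These splits were not tested.

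Values are TPM (transcript abundances), which the authors made with Salmon. TPM set the abundance of a gene, corrected for its length, against the total of the library. Levels can be compared between genes only as far as that correction holds. TPM hold no read counts, and the depth of a library is unknown. At least 1 TPM was reached by 10228 to 10378 genes in the PBS libraries, by 9260 to 9405 in F/F Tat and by 9449 to 9698 in ΔMye Tat. Ikbkb was between 12.8 and 19.9 TPM in ΔMye Tat and between 21.6 and 25.4 TPM in F/F Tat, without overlap. The Cre removes part of Ikbkb, so TPM over the whole gene are a weak check of the labels. Macrophage markers summed to 26051 TPM with PBS, to 9368 TPM with Tat and to 6975 TPM with Tat and the deletion, in the group means. Lyz2, the lysozyme gene that the Cre allele disrupts in ΔMye mice, made up most of these sums. The 5 markers without Lyz2 summed to 3669, 2375 and 2642 TPM in the same order, of which Cd68 was at 2596, 1744 and 1886 TPM. With Tat, Csf1r fell from 381 to 64 TPM (-2.57 on TPM and -2.03 after scaling) and Itgam also fell (-0.75 and -0.20). Mertk rose (0.38 and 0.93). Cd68 was lower on TPM only (-0.57 and -0.03), and Adgre1 was lower on TPM and higher after scaling (-0.18 and 0.37). The summed markers of T cells were at 3.97, 1.65 and 5.01 TPM, and Cd3e, Cd3d and Cd3g rose with the deletion (1.20, 1.35 and 1.86 on TPM). Those of NK cells, mesothelial cells and eosinophils were at most 3.28 TPM in the mean of any group. Those of B cells were between 9.9 and 18.5 TPM, those of mast cells between 25.7 and 37.4 TPM and those of neutrophils between 60.1 and 92.8 TPM. The neutrophil sum was nearly all S100a8, which rose with Tat and was at 53.8, 68.6 and 91.4 TPM, while Retnlg was at 5.07, 0.671 and 0.298 TPM and S100a9 at 1.15, 0.842 and 0.716 TPM. The part of these cell types in the results was not tested.

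The comparisons were made with limma on log2(TPM + 0.1) over the 10451 genes that reached 1 TPM in 5 or more libraries, and all 78 members passed this filter. With Tat, the median log2 difference of all tested genes was -0.65 on the TPM as deposited. Each comparison was therefore read on 2 scales, the TPM as deposited and the TPM after median-ratio scaling, in which the values of a library are divided by their median ratio to a reference made from all libraries. Scaling moved that median to -0.11. A member was said to have risen or fallen when its adjusted p was under 0.01 in the same direction on both scales. The scales differ by 1 factor per library, so they are not separate checks. With Tat, the count that fell equalled the count lower after scaling. The count that rose equalled the count higher on TPM. With the deletion it was the reverse.

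In F/F PBS PMs the mitochondrial ribosomal protein genes spanned a wide range of levels. The median member was at 37.7 TPM, 8 members exceeded 100 TPM and 14 were under 10 TPM. Mrpl52, which encodes a mitochondria-specific protein of the large subunit, had the highest level, at 446 ± 38.6 TPM (SD, n = 6), and made up 11.1% of the summed TPM of the family. Mrpl33 and Mrps21, whose proteins have bacterial counterparts in the large and the small subunit, followed at 237 ± 16.8 and 196 ± 10.8 TPM. The ranges of Mrpl52, from 386 to 485 TPM, and Mrpl33, from 214 to 265 TPM, did not overlap, and neither did those of Mrpl33 and Mrps21, whose highest library was at 213 TPM. At the other end, Mrps26 was at 2.34 ± 0.355 TPM, Mrpl47 at 4.34 ± 0.31 TPM and Mrpl32 at 4.44 ± 0.413 TPM. The ranges of Mrpl47 and Mrpl32, 3.86 to 4.79 and 3.72 to 4.84 TPM, overlapped almost entirely. Mrpl52 and Mrps26 were the highest and the lowest member in all 3 groups. The longest coding transcripts of Mrpl52, Mrpl33 and Mrps21 have 463, 478 and 488 bases. Those of Mrps26, Mrpl47 and Mrpl32 have 4278, 3364 and 3013, and the median of the members is 1328. The part of transcript length in this order of levels was not tested.

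The spread between libraries was small for most members. The coefficient of variation of the median member was 7.11% with PBS, 7.99% with Tat and 8.55% with Tat and the deletion. Over all listed genes in the same range of levels, the median was 8.4%, 8.76% and 10.1%. Mrps12, a protein of the decoding centre, was between 55.6 and 58.4 TPM over the 6 F/F PBS libraries. Mrpl23 and Mrps35 stood apart. In F/F PBS, F/F Tat and ΔMye Tat their coefficients of variation were 74.4%, 84.9% and 72.6% (Mrpl23) and 48%, 77.4% and 93.9% (Mrps35). Mrpl3 came next, at 33%, 45.6% and 23.1%. Mrpl23 was 9.18, 2.14, 4.09, 3.78, 16.5 and 6.59 TPM in F/F PBS, and was listed at 0 in 1 F/F Tat and 1 ΔMye Tat library. No other member was listed at 0 in any library.

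To learn how Tat affected the family, F/F Tat PMs were compared with F/F PBS PMs. With Tat, 35 of the 78 members (44.9%) fell, 4 (5.13%) rose and 39 did neither. Mrpl42 and Mrpl34, both of the large subunit, fell furthest, to 19% and 26.1% of their F/F PBS means, and Mrpl27 rose the most, to 141%. Of all tested genes, 41.9% fell and 17% rose by the same rule, so the share that fell was near that of the transcriptome and the share that rose was smaller. On the TPM as deposited 68 members (87.2%) were lower and 4 (5.13%) higher, against 67.6% and 17% of tested genes. The median log2 difference of the members was -0.71. After scaling 35 (44.9%) were lower and 21 (26.9%) higher, against 41.9% and 33.4% of tested genes, with a median of -0.17. Of the members, 4 were over 3-fold lower on TPM (Mrpl23, Mrpl42, Mrpl34 and Mrps36) and 0 over 3-fold higher, against 19.4% and 5.21% of tested genes. In 63 members (80.8%) every F/F Tat library lay below every F/F PBS library, against 62.4% of tested genes. In 4 (5.13%) every one lay above, against 15.3%. In bulk PMs, fewer cells of one state and less RNA per cell cannot be told apart.

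**Figure D1:**
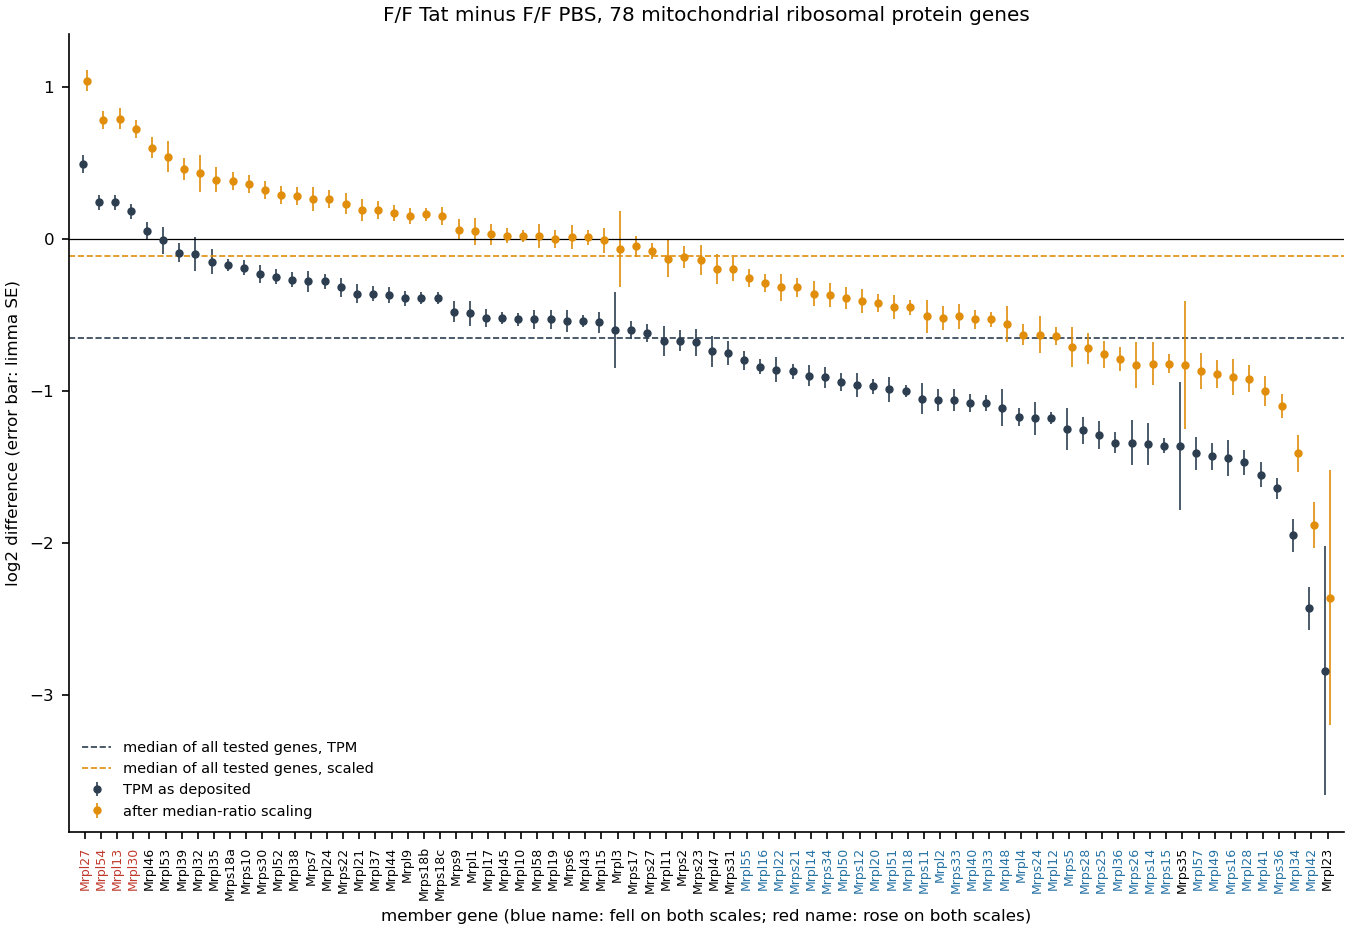
Log2 difference of each of the 78 members, F/F Tat minus F/F PBS (y axis, log2 scale, with limma's standard error), ordered along the x axis from the highest to the lowest on TPM. Dark points are on the TPM as deposited and orange points after median-ratio scaling, and dashed lines mark the medians of all tested genes (-0.65 and -0.11). The 35 names in blue fell and the 4 in red rose on both scales, and the members span from 0.49 for Mrpl27 to -2.84 for Mrpl23 on TPM.

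Mrpl42, a mitochondria-specific protein of the large subunit (ENSMUSG00000062981.5, chromosome 10, 95480805 to 95501940), was between 78 and 98.3 TPM in F/F PBS, with a median of 88.9, and between 9.86 and 21.4 TPM in F/F Tat, with a median of 18.3. Every Tat library was thus far below every PBS library. The log2 difference was -2.43 (SE 0.14, adjusted p = 2.09e-12) on TPM and -1.88 (adjusted p = 6.32e-10) after scaling. The ΔMye Tat libraries were at 21.3, 23.4, 24.7, 24.5 and 27.5 TPM.

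Mrpl34, a short protein with a bacterial counterpart (ENSMUSG00000034880.7, chromosome 8, 71464959 to 71465747), was between 78.9 and 102 TPM in F/F PBS (median 84.9) and between 17.1 and 30.5 TPM in F/F Tat (median 21.1). The groups were far apart, with a log2 difference of -1.95 (SE 0.11, adjusted p = 1.93e-12) on TPM and -1.41 after scaling. Mrpl41, a mitochondria-specific protein (chromosome 2, 24974117 to 24975098), fell from 62.4 ± 6.31 to 21.2 ± 1.67 TPM, a log2 difference of -1.55 on TPM and -1.0 after scaling. For Mrpl41, 21.1% of the 31-base sequences also occur in other genes, so its level is less certain.

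Mrpl23 had the lowest log2 difference on TPM, at -2.84, but with an SE of 0.82, and its adjusted p after scaling was 0.0153, so it did not pass. The F/F Tat libraries were at 0.534, 2.7, 0, 1.22, 1.25 and 0.785 TPM, and the highest of them was above the lowest F/F PBS library. Leaving out F/F Tat replicate 8 or ΔMye Tat replicate 20 gave a scaled adjusted p of 0.0077 or 0.00266. Mrpl23 shares 14% of its 31-base sequences with other genes, the most with its pseudogene Mrpl23-ps1.

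Mrps36 (chromosome 13, 100735955 to 100744659) was between 69.2 and 80.1 TPM in F/F PBS and between 21.7 and 27.1 TPM in F/F Tat, and it fell by 1.64 on the log2 scale on TPM (SE 0.07, adjusted p = 2.56e-14) and by 1.10 after scaling. It bears the name of the family, yet its product is not counted as a ribosomal protein. Of its 31-base sequences, 21% are shared with other genes, mostly with a pseudogene of its own.

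The proteins of the stalk, which recruits translation factors to the ribosome, did not move alike. Mrpl12 (ENSMUSG00000039640.7, chromosome 11, 120484613 to 120489065), whose product also binds the mitochondrial RNA polymerase, was between 57.7 and 67.0 TPM in F/F PBS (median 61.8) and between 25.7 and 28.8 TPM in F/F Tat (median 27.2). These tight and separate groups gave a log2 difference of -1.18 (SE 0.04, adjusted p = 1.6e-15) on TPM and -0.64 (adjusted p = 2.57e-09) after scaling. Mrpl10, which anchors the stalk, was at 30.9 ± 0.738 and 21.3 ± 0.743 TPM, a log2 difference of -0.53 on TPM but 0.02 after scaling (adjusted p = 0.717). Mrpl11, at the base of the stalk, was at 37.6 ± 4.94 and 23.5 ± 1.89 TPM, with log2 differences of -0.67 and -0.13, and did not pass after scaling. Thus of the 3 genes, Mrpl12 fell on both scales.

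With Tat, 4 members rose, and all 4 encode proteins of the large subunit. Mrpl27 (ENSMUSG00000024414.13, chromosome 11, 94653767 to 94660089), whose bacterial counterpart lies at the site of peptide bond formation, was between 74.6 and 92.6 TPM in F/F PBS (median 78.7) and between 93.1 and 126 TPM in F/F Tat (median 114). The lowest Tat library was just above the highest PBS library. The log2 difference was 0.49 (SE 0.06, adjusted p = 4.45e-07) on TPM and 1.04 after scaling. For Mrpl27, 35.5% of the 31-base sequences occur in other genes, and its exons overlap those of Eme1 on the opposite strand.

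Mrpl54, a mitochondria-specific protein, rose from between 93.2 and 109 TPM to between 110 and 132 TPM (log2 difference 0.24 on TPM, adjusted p = 0.00015, and 0.78 after scaling). Mrpl13, which has a bacterial counterpart, rose from between 42.4 and 52.8 TPM to between 55.5 and 61.7 TPM (0.24, adjusted p = 0.000331, and 0.79). Mrpl30, which also has a bacterial counterpart, rose from between 104 and 128 TPM to between 129 and 144 TPM (0.18, adjusted p = 0.00168, and 0.72). In each of the 3 genes the groups met closely without overlap on the TPM as deposited.

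Mrpl46 and Mrps11 are neighbours on chromosome 7, transcribed away from each other with starts that overlap. Mrpl46, a mitochondria-specific large subunit protein (minus strand, 78775236 to 78783531), was at 24 ± 2.33 TPM in F/F PBS and 24.8 ± 1.76 TPM in F/F Tat, a log2 difference of 0.05 (adjusted p = 0.454) on TPM and 0.60 (adjusted p = 2.5e-07) after scaling. Mrps11 (plus strand, 78783119 to 78792989), which has a counterpart in the small subunit of bacteria, fell from 16.4 ± 1.9 to 7.92 ± 1.37 TPM, a log2 difference of -1.05 on TPM and -0.51 after scaling. The level of one of this pair thus fell while the other lay within the spread of F/F PBS on TPM. Whether the libraries keep strand is not given in the sources used here, and reads from the overlapping exons cannot be told apart without it.

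**Figure D2:**
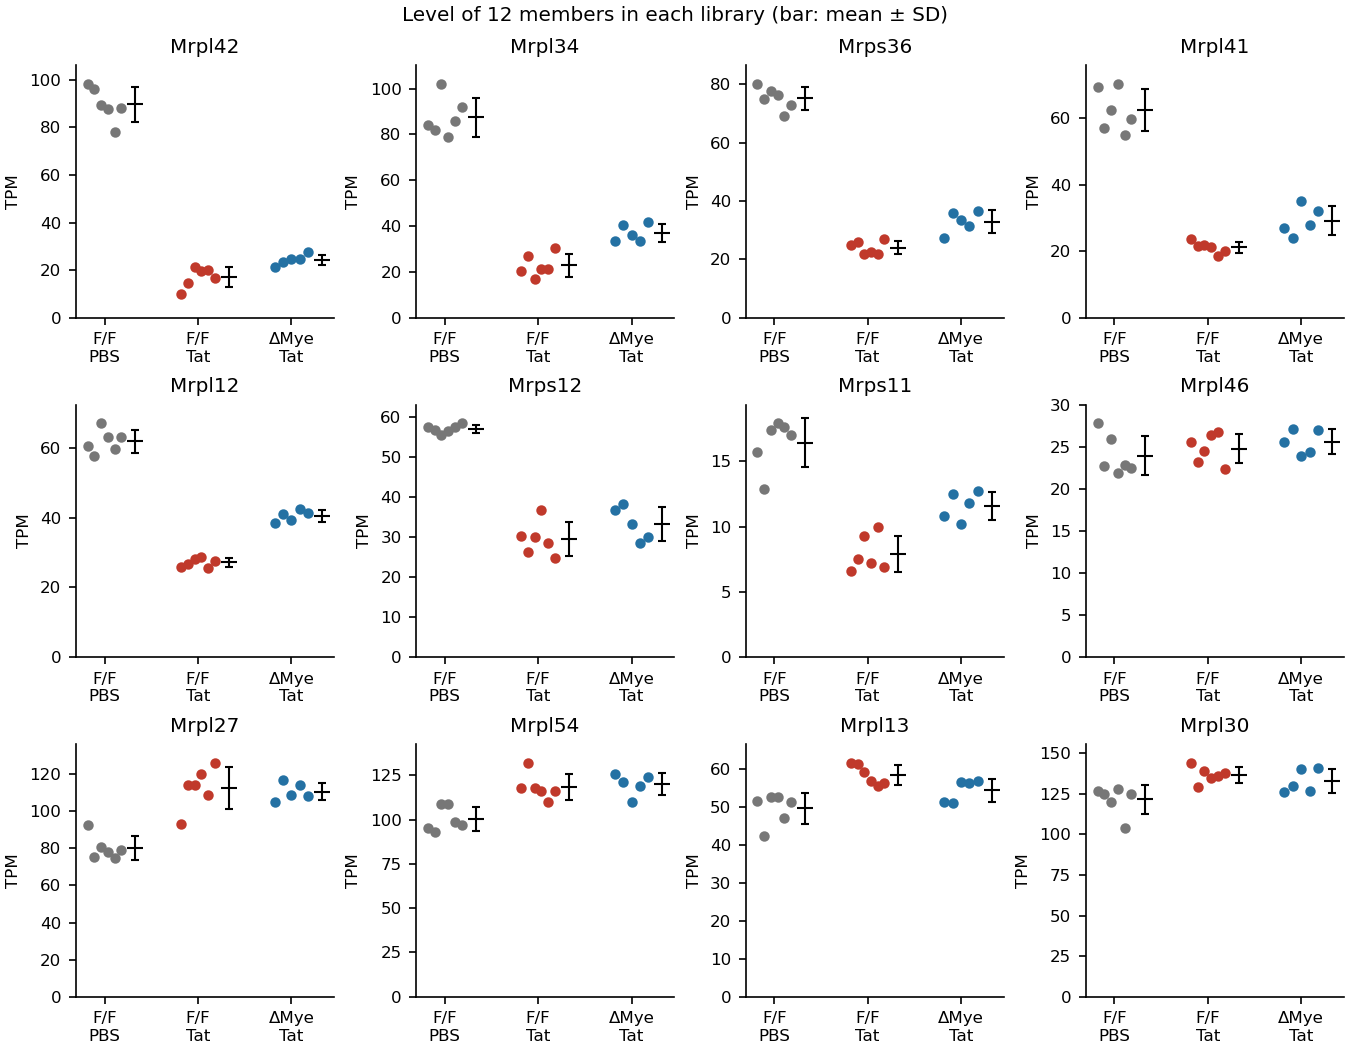
TPM (y axis, from 0) of 12 members in each library, grouped along the x axis as F/F PBS (grey, n = 6), F/F Tat (red, n = 6) and ΔMye Tat (blue, n = 5), with the mean and SD beside the points. In the top row and in Mrpl12, Mrps12 and Mrps11, every F/F Tat library lies below every F/F PBS library, Mrpl46 overlaps, and in the bottom row every F/F Tat library lies above.

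By subunit, all 26 small-subunit genes were lower with Tat on TPM, against 67.6% of all tested genes, and 13 of them (50%) fell on both scales and 0 rose. Of the 51 large-subunit genes 41 were lower and 4 higher on TPM, and 21 (41.2%) fell and 4 (7.84%) rose on both scales. Of all tested genes 41.9% fell and 17% rose by this rule. The median log2 difference on TPM was -0.89 for the small and -0.55 for the large subunit, and after scaling -0.34 and -0.01. These subunits leave out Mrps36, which fell, and go by the subunit in which a protein sits, which its symbol does not always give. By origin, 22 of the 46 genes with a bacterial counterpart (47.8%) fell and 3 rose, and 12 of the 31 mitochondria-specific genes (38.7%) fell and 1 rose, both near the 41.9% of all tested genes that fell. The median log2 differences after scaling were -0.23 and -0.08.

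The Mrps18 paralogs, 3 products of an expanded family, went the same way. Mrps18a, Mrps18b and Mrps18c were at 89.1%, 76.3% and 76.2% of their F/F PBS means on TPM, and none fell on both scales. After scaling their log2 differences were 0.38, 0.16 and 0.15, so the direction turned with the scale. The exons of Mrps18c share 32.8% and those of Mrps18b 16.7% of their 31-base sequences with other genes. Mrps30 had log2 differences of -0.23 on TPM and 0.32 after scaling. Mrpl44, which resembles ribonuclease III, and Mrpl58, which has peptidyl-tRNA hydrolase activity, differed by -0.37 and -0.53 on TPM, and by 0.17 and 0.02 after scaling. Mrps12, by contrast, fell, from between 55.6 and 58.4 TPM to between 24.8 and 36.8 TPM (-0.96 on TPM and -0.41 after scaling, adjusted p = 0.000139).

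Of the members with the highest levels, Mrpl33 fell from 237 ± 16.8 to 112 ± 5.54 TPM (log2 difference -1.08 on TPM and -0.53 after scaling) and Mrps21 from 196 ± 10.8 to 107 ± 8.48 TPM (-0.87 and -0.32). Mrps21 shares 14.5% of its 31-base sequences with other genes. Mrpl52 was at 446 ± 38.6 and 374 ± 27.4 TPM, with log2 differences of -0.25 on TPM and 0.29 after scaling, and the groups overlapped on TPM. Mrpl52 therefore took a larger part of the family after Tat, 14.1% of the summed TPM against 11.1%. Of those with the lowest levels, Mrps26 fell to 0.863 ± 0.119 TPM (-1.34 on TPM and -0.83 after scaling), whereas Mrpl47 was lower on TPM only (-0.74 and -0.20) and Mrpl32 was at 4.16 ± 0.733 TPM (-0.10, adjusted p = 0.384, and 0.43).

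The response of a member had little relation to its level or to the length of its transcript. Across the 78 members Spearman's rho of the log2 difference on TPM was 0.07 with the log2 level in F/F PBS and 0.09 with the length of the longest coding transcript. Across all tested genes the values were 0.12 (n = 10451) and 0.08 (n = 10320). These are correlations across genes that share their libraries, and genes are not independent replicates.

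The summed TPM of the family were between 3887 and 4148 in F/F PBS (median 4062), between 2557 and 2722 in F/F Tat (median 2671) and 3009, 3114, 3055, 3080 and 3234 in ΔMye Tat. The 3 groups did not overlap, and they took 0.452%, 0.295% and 0.345% of the listed TPM. After scaling the sums were 3276 ± 182, 3156 ± 119 and 3194 ± 208, which overlapped, so the order of the sums rests on the scale. The ratio of the large to the small subunit does not depend on the scale of a library. It was 2.62 ± 0.0913 with PBS, 3.05 ± 0.0868 with Tat and 2.86 ± 0.0594 with Tat and the deletion, and its highest value in F/F PBS, 2.74, was below its lowest in F/F Tat, 2.97. Without Mrpl52, the member with the highest level, the ratios were 2.21 ± 0.0593, 2.47 ± 0.0688 and 2.31 ± 0.0452. The cytosolic ribosomal protein genes summed to 27.1 ± 0.551 times the mitochondrial ones with PBS, to 30.8 ± 0.753 times with Tat and to 27.6 ± 0.527 times with Tat and the deletion. No test was made of these sums and ratios.

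**Figure D3:**
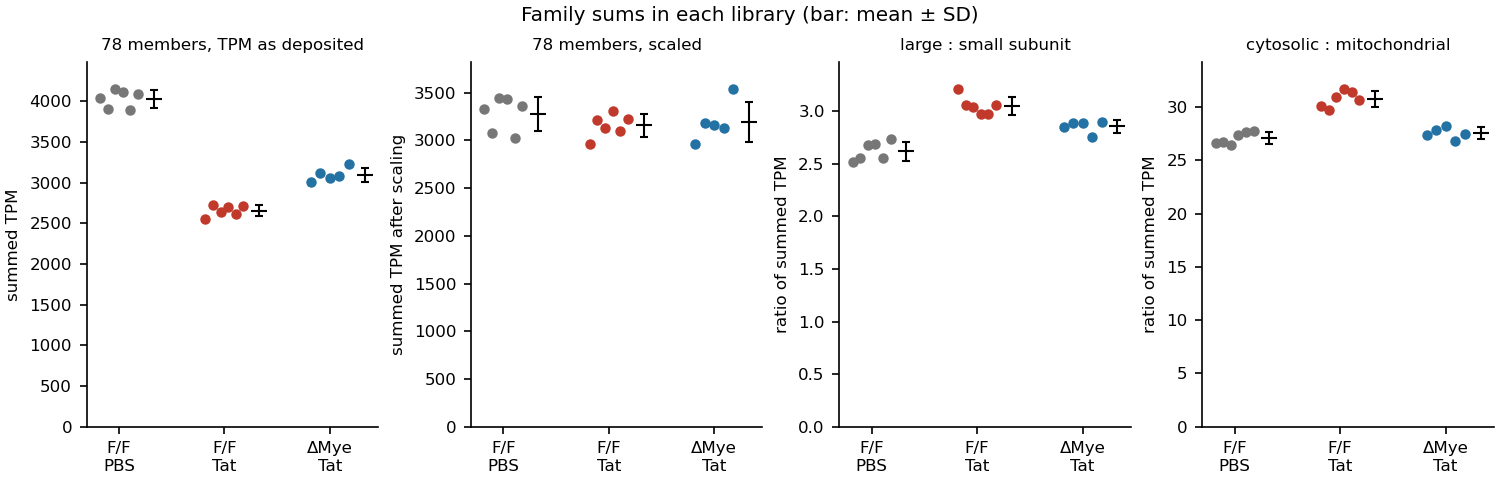
Sums in each library (points) with the mean and SD, for F/F PBS, F/F Tat and ΔMye Tat. From left to right the y axes give the summed TPM of the 78 members, the same after median-ratio scaling, the ratio of large to small subunit members and the ratio of cytosolic to mitochondrial ribosomal protein genes. The groups are apart on TPM (4030, 2658 and 3098 in the mean) and overlap after scaling, and both ratios are highest in F/F Tat.

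The other genes of mitochondrial translation were read beside the family. Of the 5 further proteins of the mitochondrial ribosome that have other symbols, Dap3, Ptcd3, Chchd1 and Aurkaip1 of the small subunit fell with Tat, and Gadd45gip1 of the large subunit did not pass after scaling (-0.51 on TPM, 0.04 scaled). Of 24 tested assembly factors, 12 (50%) fell and 0 rose, beside 41.9% and 17% of all tested genes. The lowest were the GTPases Mtg1, at 14.5 ± 1.37 and 2.23 ± 0.412 TPM (-2.66 on TPM and -2.13 after scaling), and Noa1, at 11.2 ± 1.14 and 2.16 ± 0.513 TPM (-2.35 and -1.82). The highest were Eral1 (-0.06 and 0.49) and Mterf3 (-0.22 on TPM), neither of which fell. Of 16 translation factors and regulators 10 (62.5%) fell and 0 rose, with Guf1 (-1.72 on TPM) and the release factor Mtrf1 (-1.41) lowest and Gfm1 (-0.46) and Slirp (0.43, adjusted p = 0.0133) highest.

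Of 16 tested mitochondrial aminoacyl-tRNA synthetases, the enzymes that charge tRNAs, 10 (62.5%) fell and 0 rose, beside 41.9% and 17% of all tested genes. Qrsl1, Gatb and Gatc, the subunits of the amidotransferase that completes glutaminyl-tRNA, also fell. Vars2, for valine, was 2.37, 2.35, 2.18, 2.55, 3.35 and 2.78 TPM in F/F PBS and 0.482, 0.0333, 0.312, 0.236, 0 and 0.649 TPM in F/F Tat. Cars2, for cysteine, was between 3.69 and 4.9 TPM in F/F PBS and 0.326, 0.923, 0.829, 0, 0.631 and 0.716 TPM in F/F Tat. Both were far lower in every Tat library, and each was listed at 0 in 1 of them. The highest of the list were Wars2 (0.00 on TPM, adjusted p = 0.995) and Ears2 (-0.33, adjusted p = 0.0213).

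Of the 10 genes of mitochondrial DNA transcription and replication 6 (60%) fell and 0 rose, with the helicase Twnk at 3.47 ± 0.516 and 0.884 ± 0.259 TPM (-1.88 on TPM and -1.37 after scaling) and Polg2, which was listed at 0 in 1 F/F Tat library, at -2.17. Tfam, which packages mitochondrial DNA, was at 19.4 and 15.2 TPM and did not pass (-0.39, adjusted p = 0.0321), and Tefm was lower on TPM only (-0.62). Of the 13 protein-coding genes of the mitochondrial genome 9 (69.2%) fell and 0 rose, from -1.50 for mt-Nd3 and -1.0 for mt-Nd2 to -0.54 for mt-Co3 and -0.39 for mt-Co1 on TPM. Of the 46 tested nuclear genes of complex I, the first enzyme of the respiratory chain, 39 (84.8%) fell and 0 rose. Of the 82 tested cytosolic ribosomal protein genes 9 (11%) fell and 2 (2.44%) rose. These shares stand beside 41.9% of all tested genes that fell and 17% that rose. The median log2 differences after scaling were -0.17 for the 78 members, 0.10 for cytosolic ribosomal proteins, -0.27 for mitochondrial genes, -0.41 for assembly factors, -0.51 for translation factors, -0.58 for the synthetases with the amidotransferase and -0.47 for complex I, beside -0.11 for all tested genes.

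**Figure D4:**
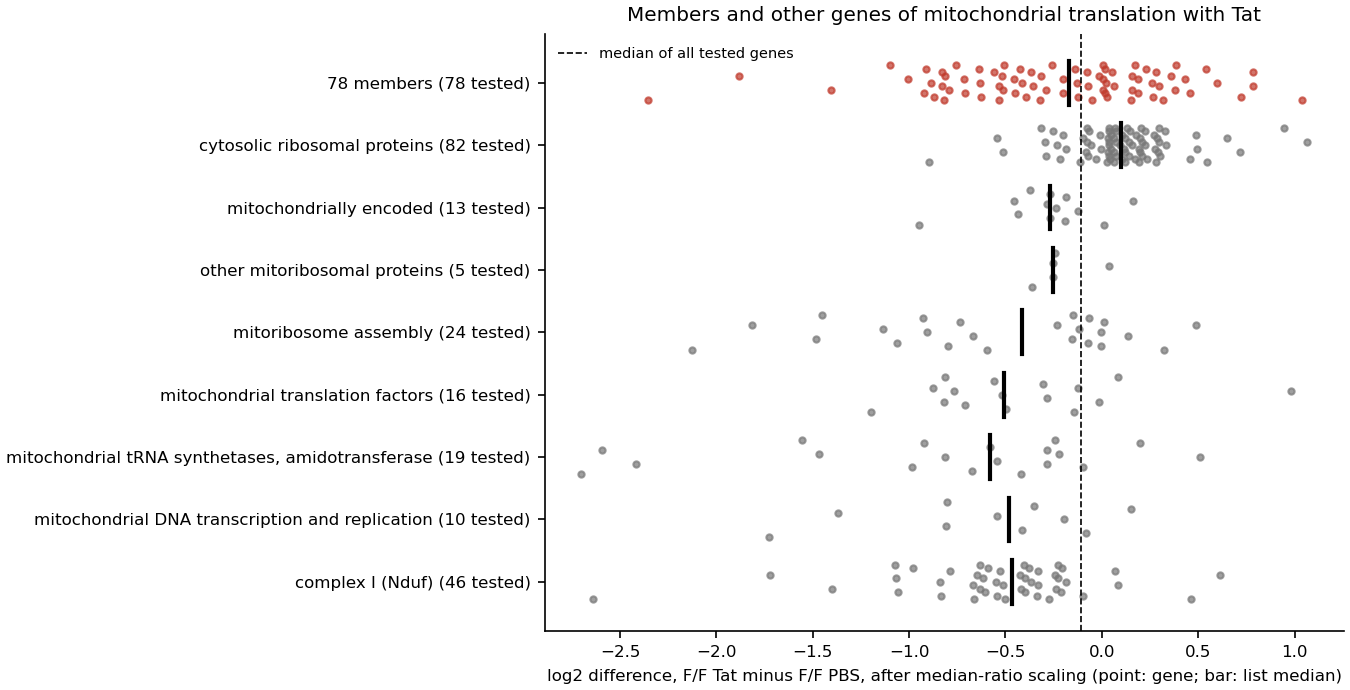
Log2 difference with Tat after median-ratio scaling (x axis) of each tested gene (points) in 9 groups of genes (rows, with the number tested), with the median of each group as a black bar and that of all tested genes (-0.11) as a dashed line. The 78 members (red) spread on both sides of the line, from -2.36 to 1.04. The medians of the assembly factors, translation factors, synthetases with the amidotransferase and complex I lie between -0.58 and -0.41.

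Of 10 tested genes for factors that are known to control nuclear genes of mitochondria, 4 (40%) fell and 2 (20%) rose with Tat. Of all tested genes 41.9% fell and 17% rose, so both shares were near those of the transcriptome. The coactivator Ppargc1b was at 1.42 ± 0.105 and 0.129 ± 0.0569 TPM (-2.77 on TPM and -2.35 after scaling), Myc at 15.3 ± 2.49 and 6.15 ± 1.04 TPM (-1.30 and -0.76), and Gabpb2 (-1.10 on TPM) and Yy1 (-0.73) also fell. Max, the partner of MYC, rose from 73.1 ± 5.09 to 167 ± 3.21 TPM (1.19 and 1.74) and Gabpb1 from 14.6 ± 1.22 to 28.9 ± 1.33 TPM (0.99 on TPM). Nrf1 was at 15.3 ± 1.67 and 14 ± 1.45 TPM (-0.13 on TPM and 0.41 after scaling) and Gabpa at 16.9 ± 1.65 and 17.9 ± 0.873 TPM (0.08 and 0.63). Both were higher after scaling only (adjusted p = 1.67e-04 and 6.65e-09).

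To learn how the family differed without IKKβ in myeloid cells, ΔMye Tat PMs were compared with F/F Tat PMs. On both scales 8 of the 78 members (10.3%) rose and 0 fell. They were Mrpl12, Mrpl18, Mrpl20, Mrpl33, Mrpl34, Mrpl40 and Mrpl51 of the large subunit and Mrps15 of the small subunit. Of all tested genes, 17% rose and 8.87% fell by the same rule. On the TPM as deposited 40 members (51.3%) were higher and 0 lower, against 38.8% and 8.87% of tested genes. The median log2 difference was 0.26, beside 0.22 for all tested genes. After scaling 8 (10.3%) were higher and 5 (6.41%) lower, against 17% and 18.4%, with medians of 0.06 and 0.02. No member was over 3-fold different in this comparison, in which 0.316% of tested genes were over 3-fold lower and 0.44% over 3-fold higher. In 27 members (34.6%) every ΔMye Tat library lay above every F/F Tat library on TPM, against 28.6% of tested genes. In 0 members every one lay below, against 8.01%.

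Mrpl12 had the lowest scaled adjusted p of the 8. It was 25.7 to 28.8 TPM in F/F Tat, and the ΔMye Tat libraries were at 38.5, 41, 39.2, 42.5 and 41.2 TPM, between the other groups and overlapping neither. The log2 difference was 0.57 (SE 0.04, adjusted p = 3.04e-09) on TPM and 0.37 (SE 0.06, adjusted p = 3.39e-05) after scaling. Mrpl34 was between 17.1 and 30.5 TPM in F/F Tat and at 33.4, 40.3, 36.1, 33.7 and 41.6 TPM in ΔMye Tat, without overlap. It rose with a log2 difference of 0.71 (adjusted p = 3.32e-05) on TPM and 0.51 (adjusted p = 0.00221) after scaling. Mrps15, with a counterpart in the small subunit of bacteria, rose from between 26.3 and 31.9 TPM to 39.7, 41.2, 42.7, 38.6 and 44.2 TPM (0.46 on TPM and 0.26 after scaling, adjusted p = 0.0018). With Tat against PBS, the scaled log2 differences of these genes were -0.64 (Mrpl12), -0.45 (Mrpl18), -0.42 (Mrpl20), -0.53 (Mrpl33), -1.41 (Mrpl34), -0.53 (Mrpl40), -0.45 (Mrpl51) and -0.82 (Mrps15). The F/F Tat libraries enter both comparisons, so the values are given side by side. Without any single library, Mrpl12, Mrpl18, Mrpl20, Mrpl34 and Mrps15 still passed. Mrpl33, Mrpl51 and Mrpl40 did not pass without 1 of 11, 8 and 2 libraries, respectively, and without ΔMye Tat replicate 23 the count was 5.

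**Figure D5:**
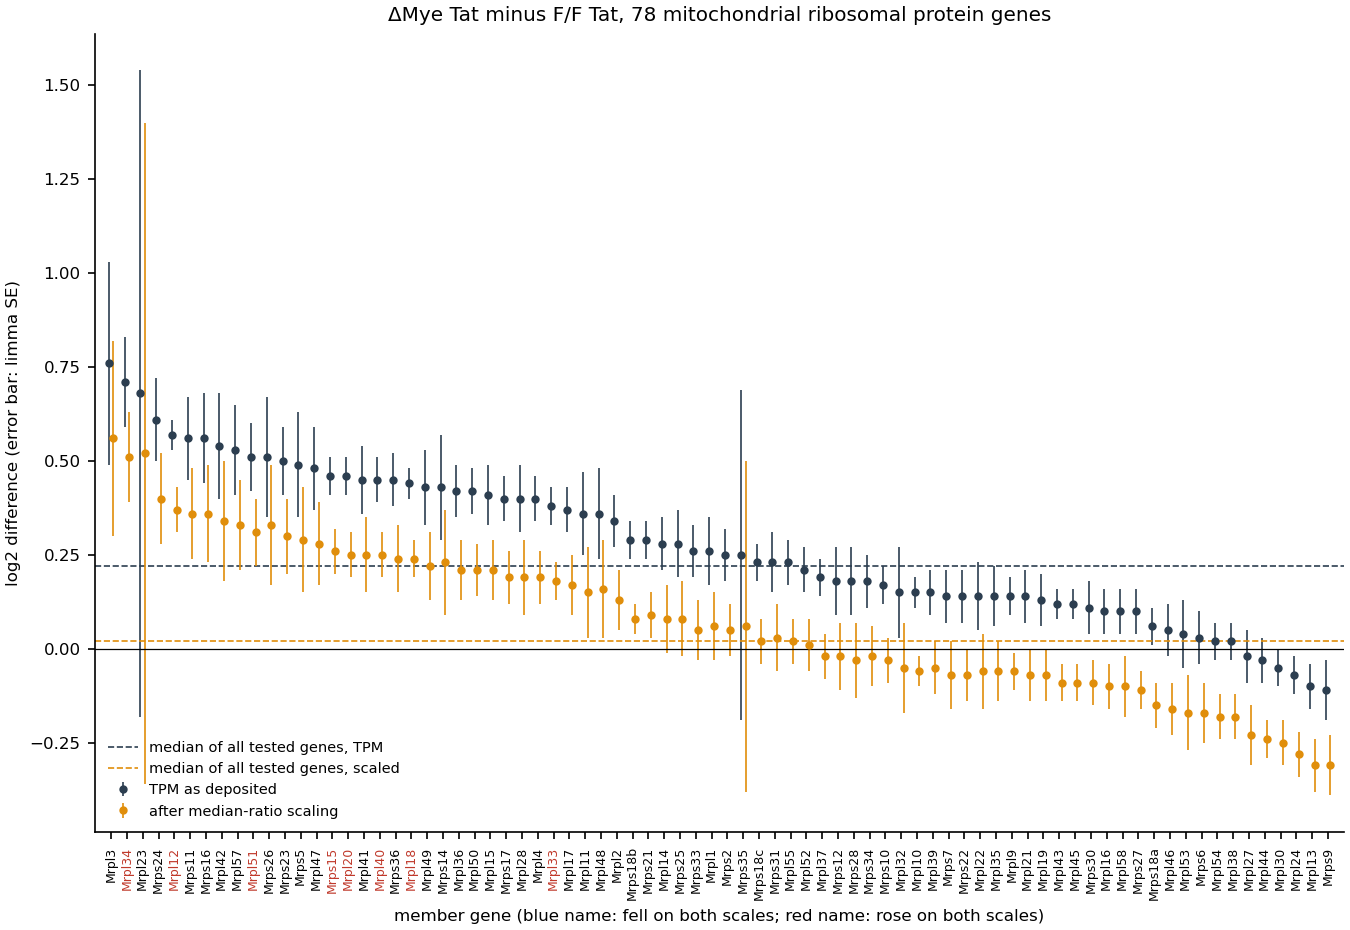
Log2 difference of each of the 78 members, ΔMye Tat minus F/F Tat (y axis, log2 scale, with limma's standard error), ordered from the highest to the lowest on TPM. Dark points are on the TPM as deposited and orange points after median-ratio scaling, and dashed lines mark the medians of all tested genes (0.22 and 0.02). On TPM the values span from 0.76 for Mrpl3 to -0.11 for Mrps9, and the 8 names in red rose on both scales.

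Among the other members named for this comparison, Mrpl3 had the highest log2 difference on TPM, 0.76, but its libraries spread from 1.85 to 5.51 TPM in F/F Tat and from 4.04 to 6.94 TPM in ΔMye Tat, and it did not pass (adjusted p = 0.0205). Mrps24 (0.61 on TPM, scaled adjusted p = 0.0115) and Mrps11 (0.56, scaled adjusted p = 0.0171) passed on TPM only. Mrps24 shares 15.4% of its 31-base sequences with other genes. At the lower end, Mrps9 (-0.11), Mrpl13 (-0.10), Mrpl24 (-0.07), Mrpl30 (-0.05) and Mrpl44 (-0.03) did not pass on TPM, and after scaling they were at -0.31, -0.31, -0.28, -0.25 and -0.24, each with an adjusted p under 0.01. These are the 5 members that were lower after scaling. Mrpl27 and Mrpl54, which rose with Tat, were at 111 ± 4.91 and 120 ± 5.98 TPM in ΔMye Tat, with log2 differences from F/F Tat of -0.02 and 0.02. Mrpl42 was between 21.3 and 27.5 TPM, overlapping F/F Tat, with 0.54 on TPM and 0.34 after scaling (adjusted p = 0.0807).

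In the other lists the genes that rose on both scales with the deletion were 6 of 24 assembly factors, 2 of 16 translation factors, 2 of 16 synthetases, 8 of 46 complex I genes and 4 of 13 mitochondrial genes, and none of their tested members fell. Of all tested genes 17% rose and 8.87% fell by this rule. The assembly factors Mtg1 (0.94 on TPM and 0.74 after scaling) and Noa1 (0.85 and 0.66) were among them. Of the cytosolic ribosomal protein genes 1 rose and 1 fell. Yy1 rose (0.44 and 0.23) and Max fell (-0.42 and -0.62).

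Compared with F/F PBS, ΔMye Tat PMs had 32 members (41%) that fell and 2 (2.56%) that rose on both scales. Of tested genes, 37.9% fell and 17.5% rose. On TPM 53 (67.9%) were lower and 2 (2.56%) higher, against 58.8% and 17.5%. After scaling 32 (41%) were lower and 15 (19.2%) higher, against 37.9% and 30.2%. The median log2 difference was -0.50 on TPM and -0.16 after scaling, beside -0.43 and -0.09 for all tested genes. Mrpl42 was the 1 member over 3-fold lower (-1.88 on TPM), against 11.1% of tested genes, and 0 were over 3-fold higher, against 4.38%. Mrpl34 was at 42.3% and Mrpl12 at 65.4% of the F/F PBS mean, and Mrpl27 and Mrpl54, the 2 that rose, at 138% and 120%. This comparison shares its groups with both others, so its values are given beside them and not as separate evidence.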

How the data were processed

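RNA-Seq of 17 libraries was grouped by the sample labels. A feature of the genotype that all groups share is not reported here. The authors ran Salmon with Ensembl transcripts of GRCm38 (mm10 in the submitters' notes) and deposited TPM values by gene symbol, with no stated normalization between libraries. Their own test, with TMM and edgeR, was not repeated here. TPM hold no counts, so depth and counting error are unknown.

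The 10451 genes that reached 1 TPM in 5 or more libraries entered limma 3.58.1 (R 4.3.3) as log2(TPM + 0.1) (eBayes with trend, 3 groups in 1 fit, 14 residual degrees of freedom, Benjamini-Hochberg over all tested genes). A fold change on this scale understates that of low genes. Calls needed an adjusted p under 0.01. Median-ratio factors used the genes with at least 1 TPM in every library. Alternatives were other pseudocounts, filters, scalings, call rules and groups, and each library left out. The code recovered known changes in simulated data. The authors' figure legends call each heat map column a biological replicate of mouse, and the sample titles name no animal. The p-values measure the spread between libraries.

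Members and gene lists were chosen with earlier results of these data known. Members named are the 5 highest and 5 lowest with Tat and with deletion (higher group at 5 TPM or more), 12 chosen by role, and the 3 highest and 3 lowest levels in F/F PBS. From the other lists, the 2 highest and 2 lowest are named. Other genes that rose with deletion, the genes of Nrf1 and Gabpa, and assembly factors in that comparison were named after their values were seen. Mrps35 was named for its spread between libraries. Shared 31-base sequences were counted in the GENCODE M21 transcripts.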

Additional observations from a re-analysis of the deposited data

Results flagged for a closer look

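In 3 of 96 groups tested (31 named members and the summed TPM, each in 3 groups), 1 library stood apart from the rest of its group by Dixon's criterion, and chance flags about 1 in 20 groups. Mrpl27 was at 92.6 TPM in F/F PBS replicate 1, and the other 5 libraries were between 74.6 and 80.7 TPM. Mrpl54 was at 132 TPM in F/F Tat replicate 8, and the other 5 were between 110 and 118 TPM. Mrpl30 was at 104 TPM in F/F PBS replicate 5, and the other 5 were between 120 and 128 TPM. All 3 genes rose with Tat, and each passed on both scales with any 1 library left out.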

How the results depend on the processing

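No paired analysis was possible because the groups share no replicate number. The choice of scale moved every count by over 1.5 times. With Tat, 68 members lower and 4 higher became 35 and 21 after median-ratio scaling, 40 and 14 after quantile normalization, and 4 and 0 with a fold over 3 required, and the median log2 difference of -0.71 became -0.17 and -0.28 under the 2 scalings. With deletion, 0 lower and 40 higher became 5 and 8 after median-ratio scaling and 2 and 15 after quantile normalization, 0 were higher by over 3-fold, and the median of 0.26 became 0.06 and 0.08. In ΔMye Tat compared with F/F PBS, 53 lower and 2 higher became 32 and 15, 33 and 14, and 1 and 0 with the fold, and the median of -0.50 became -0.16 and -0.17. Scaled sums were 3276 (F/F PBS), 3156 (F/F Tat) and 3194 (ΔMye Tat). Other pseudocounts and filters, and a fit of the compared groups alone, kept these counts within 1.5 times.

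With 1 library left out, members lower with Tat numbered 67 to 69 and higher 4, with medians of -0.75 to -0.70. The counts on both scales, added after seeing the data, were 34 to 36 and 4. For deletion the ranges were 35 to 41 higher and 0 lower, medians 0.23 to 0.28, and 5 to 10 (rose, both scales). In ΔMye Tat compared with F/F PBS they were 50 to 54, 2, medians -0.51 to -0.45, and 26 to 32 and 2 on both scales. Sums ranged from 4007 to 4059, 2645 to 2678 and 3064 to 3121.

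The direction of single members turned with the scale. With Tat, median-ratio scaling gave 0.06 (Mrps9), 0.26 (Mrpl24), 0.17 (Mrpl44), 0.02 (Mrpl10), 0.02 (Mrpl58), 0.38 (Mrps18a), 0.16 (Mrps18b), 0.15 (Mrps18c), 0.32 (Mrps30), 0.43 (Mrpl32) and 0.29 (Mrpl52), and quantile normalization 0.07 (Mrps9), 0.10 (Mrpl44), 0.39 (Mrpl3), 0.47 (Mrps30), 0.30 (Mrpl47) and 0.86 (Mrpl32). With deletion, median-ratio scaling gave -0.18 (Mrpl54), -0.16 (Mrpl46), -0.06 (Mrpl10), -0.10 (Mrpl58), -0.02 (Mrps12), -0.15 (Mrps18a), -0.09 (Mrps30) and -0.05 (Mrpl32), and quantile normalization -0.04 (Mrpl54), -0.12 (Mrpl46), -0.03 (Mrpl10), -0.03 (Mrpl58), -0.04 (Mrps18a), -0.11 (Mrps30) and -0.12 (Mrpl32). Mrpl27 with deletion ranged from -0.08 to 0.01 with 1 library left out. Median-ratio scaling divides each library by 1 factor, so by construction all genes shift together. TPM alone do not give the depth, so a difference of low members such as Mrps26 and Mrpl23 cannot be weighed against counting error.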
